A study of Mus musculus with 12 samples.

Results

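The sterol and fatty acid synthesis genes examined here are a list of 30 genes chosen by name: enzymes of cholesterol and fatty acid production, the SREBP transcription factors that drive them, and proteins that control or move sterols. For 29 of the 30 the platform annotation gave a probe set with that gene symbol alone, and 29 of these 29 passed the filter on dim probe sets. Acat2 was not used here. These 29 stood among 12961 genes tested. Where a gene had several probe sets, the one with the highest mean over the 12 arrays was taken.

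The arrays measured primary B lymphoma cells of l-MYC;B1-8f mice on a C57BL/6J x BALB/c background, which carry a MYC transgene and a floxed B1-8 heavy chain gene, part of the B cell receptor (BCR). TAT-Cre, a Cre recombinase that enters cells, was used to remove the receptor, and the cells were sorted from mixed cultures on day 4. Each of 3 tumours, numbered 2567, 2646 and 2676, gave 1 array in each of 4 groups. These were BCR-negative cells cultured with CHIR99021, an inhibitor of the kinase GSK3, BCR-independent cells, untreated BCR-negative cells and untreated BCR-positive cells. All were taken from mixed cultures that also held the other kind of cell. Each BCR-independent array is a single clone (clone 8 of tumour 2567, clone 7 of 2646 and clone 1 of 2676) that arose in long culture of BCR-negative cells and was grown beside receptor-bearing cells of its own tumour. The labels give no dose of CHIR99021, and do not say whether the arrays of a tumour came from separate cultures, so p-values reflect the spread seen between these arrays, which may be technical in part. In tumours 2646 and 2676, titles of the untreated receptor-positive and receptor-negative arrays carry a closing (2), which is not explained and is called the title mark here.

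Cholesterol is built from acetyl-CoA through mevalonate, squalene and lanosterol, and fatty acids are built from the same precursor by carboxylation, chain extension and desaturation. When membrane sterol is low, SCAP carries the SREBP proteins from the endoplasmic reticulum to the Golgi for cleavage, and the released factors switch on both routes, whereas INSIG proteins hold the complex back when sterol is plentiful. Dividing lymphocytes use both routes to make membrane. GSK3 is known to phosphorylate nuclear SREBP and so to mark it for degradation.

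Values are log2 signals, on which a difference of 1 is a doubling. Array medians lay between 3.32 and 3.44 and 75th percentiles between 5.23 and 5.46. The Ighv segment that the B1-8 chain uses read 6.44 ± 0.57 in BCR-negative and 9.62 ± 0.30 in BCR-positive cells (SD, n = 3), a fitted change of -3.18 (SE 0.31, limma, adjusted p = 0.0241). That segment has near-identical copies, so its share of the signal is uncertain. Its fall from BCR-positive to BCR-negative cells passed in 9 of 13 alternative settings. It did not pass with no tumour block or with any tumour left out. The clones read 4.04 ± 0.28 and the CHIR99021 arrays 5.77 ± 0.73 (SD, n = 3 each). The clones lay below untreated BCR-negative cells without overlap, a fitted change of -2.40 (SE 0.31, limma, adjusted p = 0.135). Whether the latter kept some receptor was not tested. Of 9 B cell markers measured, 7 exceeded the 75th percentile of every array, Blk varied between tumours and groups, and Ms4a1 lay below the median on every array. None of 7 T cell, 3 NK cell, 10 myeloid, 6 stromal, 3 endothelial and 2 erythroid markers exceeded the 75th percentile on every array, and of 4 plasma cell markers Xbp1 did. On some arrays the T cell marker Cd2, the endothelial marker Pecam1, the plasma cell marker Sdc1 and the myeloid marker Itgam did exceed it, on 10, 11, 11 and 3 of 12 arrays. Cd2 ranged over 5.07 to 8.10, Pecam1 over 4.84 to 7.40 and Itgam over 4.08 to 5.97, whereas the T cell receptor component Cd3e stayed at 2.84 to 3.24. The ranges of Cd2, Pecam1 and Itgam overlapped between the 4 groups, and their part in the results was not tested.

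Promoter sequences were available from RefSeq (GRCm38.p6, 250 bases before to 50 after a transcript start) for 24 of the 30 genes. Windows of some of them are given 5′ to 3′ on the gene's strand. Hmgcs1, Cyp51 and Msmo1 are sterol genes lower in CHIR99021-treated than untreated BCR-negative cells of tumour 2567 and higher in 2646. Dhcr7 is the sterol gene with the smallest p under CHIR99021, and Fasn is a fatty acid gene. Capitals mark TCACNCCAC, a form of the sterol regulatory element, and the CCAAT box, each on either strand.
Hmgcs1, chr13:119690101-119690400, plus strand: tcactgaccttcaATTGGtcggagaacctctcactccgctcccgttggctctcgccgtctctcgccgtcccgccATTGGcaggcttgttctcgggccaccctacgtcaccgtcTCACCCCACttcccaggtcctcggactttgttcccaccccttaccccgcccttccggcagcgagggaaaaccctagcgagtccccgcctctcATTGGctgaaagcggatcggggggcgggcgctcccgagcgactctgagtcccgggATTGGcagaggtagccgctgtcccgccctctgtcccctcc
Cyp51, chr5:4104648-4104947, minus strand: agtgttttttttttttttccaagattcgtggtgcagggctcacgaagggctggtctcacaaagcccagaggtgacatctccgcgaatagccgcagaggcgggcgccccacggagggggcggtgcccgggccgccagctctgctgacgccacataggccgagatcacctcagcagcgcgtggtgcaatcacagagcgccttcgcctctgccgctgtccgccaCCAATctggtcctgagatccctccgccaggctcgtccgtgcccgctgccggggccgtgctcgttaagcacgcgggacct
Msmo1, chr8:64733529-64733828, minus strand: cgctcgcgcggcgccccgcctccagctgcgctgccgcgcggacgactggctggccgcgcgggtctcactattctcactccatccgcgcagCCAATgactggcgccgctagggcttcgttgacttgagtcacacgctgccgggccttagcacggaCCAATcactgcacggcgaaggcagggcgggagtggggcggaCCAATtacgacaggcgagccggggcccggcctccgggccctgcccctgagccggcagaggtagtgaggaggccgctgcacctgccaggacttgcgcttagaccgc
Dhcr7, chr7:143829964-143830263, plus strand: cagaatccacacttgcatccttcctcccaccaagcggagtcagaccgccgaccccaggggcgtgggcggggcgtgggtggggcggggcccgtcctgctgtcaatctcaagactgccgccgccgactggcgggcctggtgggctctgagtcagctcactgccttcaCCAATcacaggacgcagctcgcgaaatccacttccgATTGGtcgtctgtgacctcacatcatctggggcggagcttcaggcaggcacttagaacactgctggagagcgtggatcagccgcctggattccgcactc
Fasn, chr11:120824498-120824797, minus strand: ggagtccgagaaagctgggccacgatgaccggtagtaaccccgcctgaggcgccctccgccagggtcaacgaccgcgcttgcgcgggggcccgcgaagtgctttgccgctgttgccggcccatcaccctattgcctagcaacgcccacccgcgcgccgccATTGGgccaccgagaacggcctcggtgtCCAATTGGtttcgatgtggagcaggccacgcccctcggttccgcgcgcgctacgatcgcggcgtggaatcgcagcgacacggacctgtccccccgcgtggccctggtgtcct

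The CCAAT box, which the factor NF-Y binds, was found in 20 of these 24 genes (83.3%), counting a gene with a match in any of its windows, against 41.1% of 27025 genes with a window. Hmgcs1 had 4 matches, Msmo1 had 3 and Fasn had 3, of which 2 overlap. TCACNCCAC was found in 1 of the 24, in Hmgcs1, where the match begins at -137 relative to the start base (0), against 1.44% of genes in all. The E-box CACGTG, which SREBP and several other factors can bind, was found in 5 (20.8%), namely Dhcr7 in another window, Hsd17b7, Insig1, Sc5d and Scap, against 8.09% in all. Matches of the 3 motifs were counted separately, and a match shows letters, not binding. Only exact matches were counted, so a window without TCACNCCAC may still hold a sterol regulatory element with other letters. Several windows were searched for 4 of the genes. Of those of Dhcr7, only the window printed held the CCAAT box, with 2 matches.

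Tumours differed more than groups for most of these genes, as for genes in general. Over the 29 genes the median share of the variance between tumours was 37% and between groups 17.5%, close to 39.8% and 20.7% over all genes tested. Tumour took the larger share in 19 of 29 (65.5%), against 67.1% of all genes. Fdps, farnesyl diphosphate synthase, and Acss2, which makes acetyl-CoA from acetate, varied with tumour the most in their arms (81.2% and 84.6%). Elovl6, Scd1 and Dhcr7 were the 3 with the largest share between groups (67.9%, 62.9% and 61.3%). Cyp51 and Msmo1 varied little with tumour (0.0244% and 0.952%), had 17.5% and 25% between groups, and had 82.5% and 74% of their variance outside both terms. Acss2 and Tm7sf2 were dim, at 3.44 to 4.17 and 3.39 to 3.80, near the array medians, where RMA compresses differences.

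**Figure D1:**
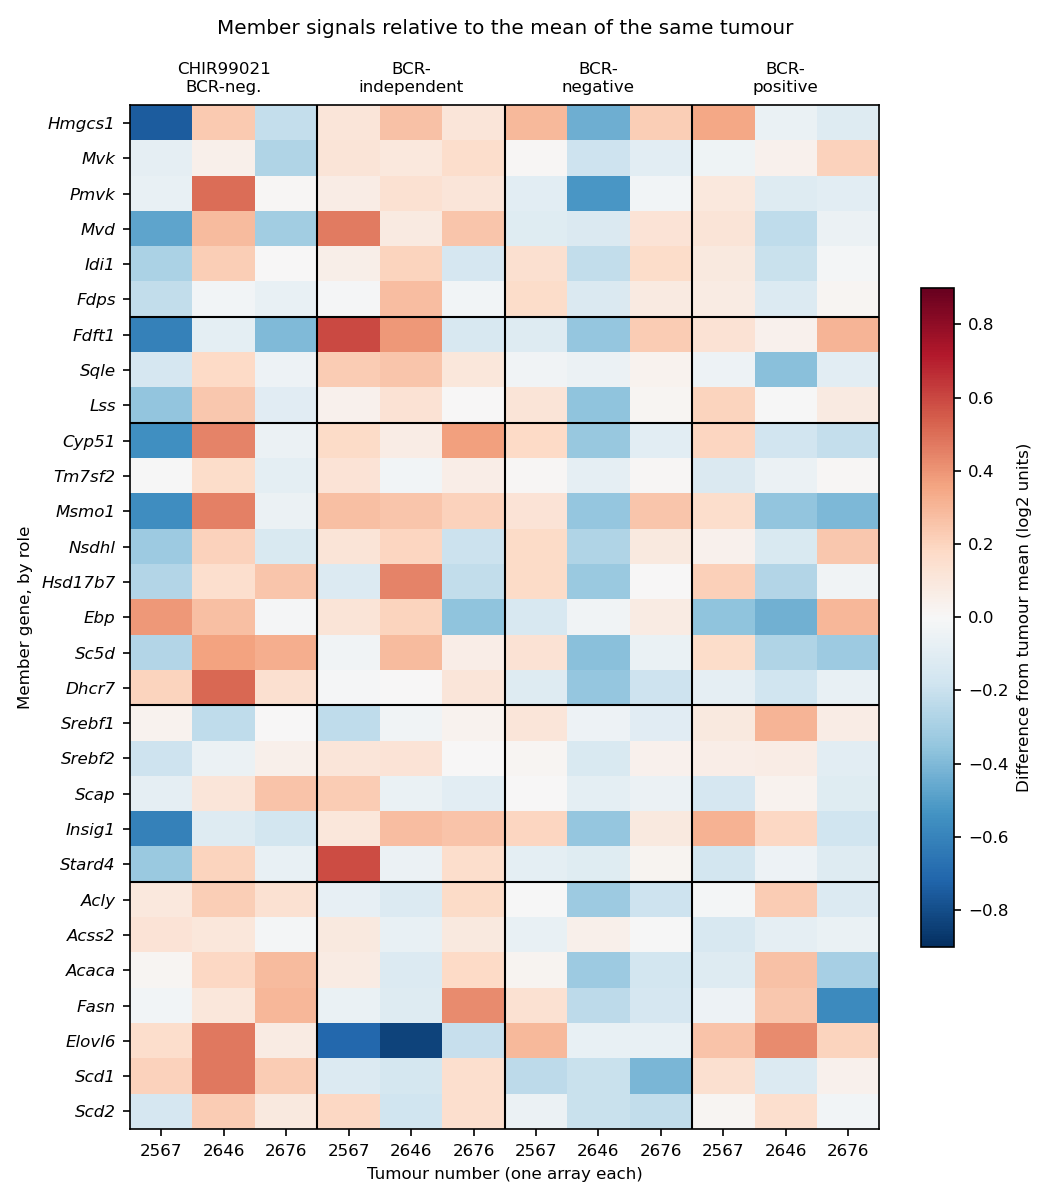
Each cell is the log2 signal of 1 of the 29 genes (rows, grouped by role) on 1 array (columns, 3 tumours in each of 4 groups) minus the gene's mean over the 4 arrays of that tumour. The 17 sterol enzymes are mostly blue on the treated array of tumour 2567 (median -0.27) and on the untreated BCR-negative array of tumour 2646 (median -0.33), and Elovl6 is lowest in BCR-independent cells.

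The comparison of CHIR99021-treated with untreated BCR-negative cells addresses the effect of the GSK3 inhibitor on cells that lack the receptor. None of the 29 genes passed the test over all genes (limma, Benjamini-Hochberg adjusted p under 0.05), where 1.91% of all genes did. At an unadjusted p under 0.05 there were 3 of 29 (10.3%), Scd1, Dhcr7 and Acly, against 16.6% of all genes. The median fitted change was 0.0359, beside 0.0256 over all genes. In both arms the signs of the differences varied between tumours.

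Of the 17 sterol enzymes tested, from Hmgcs1 to Dhcr7, 14 were lower in the treated cells of tumour 2567, 17 were higher in those of tumour 2646, and 12 were lower in those of tumour 2676. Their median differences were -0.39, 0.48 and -0.12 in tumours 2567, 2646 and 2676, where all genes had medians of 0.0612, 0.0199 and 0.00449. Each of these is a difference between 2 arrays and was not tested. Hmgcs1, which joins acetyl units into HMG-CoA, read 7.96, 8.62 and 8.18 in treated cells of tumours 2567, 2646 and 2676, against 9.01, 7.94 and 8.61 in untreated BCR-negative cells. Treated cells were thus lower in tumours 2567 and 2676 and higher in 2646, and the 95% confidence interval of the fitted change ran from -0.87 to 0.34. Cyp51, the lanosterol demethylase, read 7.22, 8.23 and 7.72 in treated cells, against 7.95, 7.44 and 7.68 in untreated BCR-negative cells. Msmo1, an oxidase that removes methyl groups from sterols, had differences of -0.68, 0.80 and -0.30 between treated and untreated cells of tumours 2567, 2646 and 2676. Like Hmgcs1, both were lower in treated cells of tumour 2567 and higher in those of 2646.

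Against the mean of the 4 arrays of tumour 2646, which includes each array itself, the median deviation of the 17 sterol enzymes was 0.23 in treated, 0.20 in BCR-independent, -0.33 in untreated BCR-negative and -0.17 in BCR-positive cells. The untreated BCR-negative array and the BCR-positive array of that tumour were thus both below its mean. Without tumour 2646 the median change of the 29 genes under CHIR99021 was -0.093, without 2567 it was 0.14, and without 2676 it was 0.0592. After the title mark was added to the fit it was -0.0991. Tumour 2567 is the tumour in which treated and untreated arrays both lack the mark. B cell markers averaged 7.20 to 7.72 over treated arrays, against 7.56 to 8.02 over untreated BCR-negative arrays, and their part in these values was not tested. In sorted bulk cells a lower signal can stand for fewer cells expressing a gene or less RNA in each cell, which cannot be told apart.

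**Figure D2:**
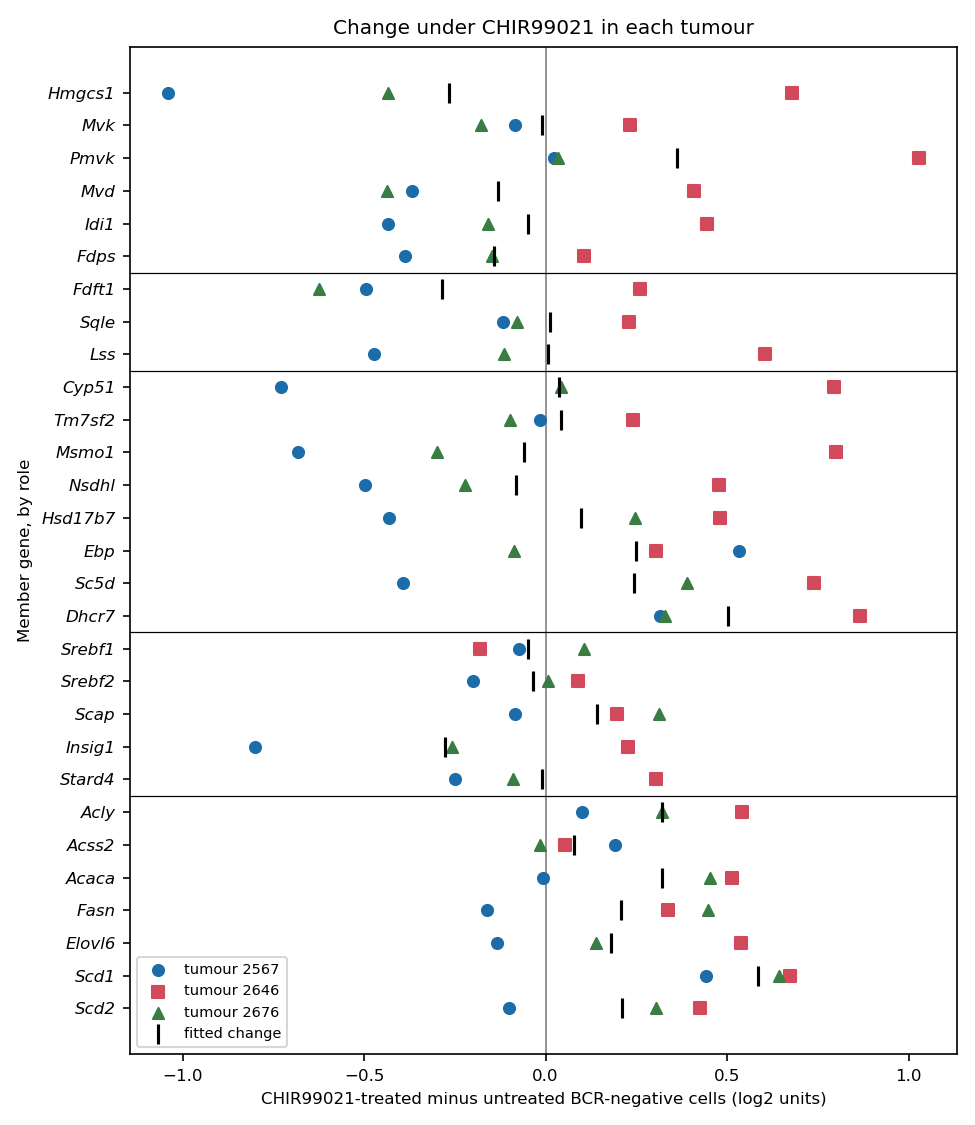
Points are the differences of log2 signals between CHIR99021-treated and untreated BCR-negative cells in each of the 3 tumours for the 29 genes, and black ticks are the fitted changes. In the sterol rows tumour 2646 lies right of 0 for 17 of 17 genes and tumour 2567 left of 0 for 14 of 17. Scd1, Dhcr7, Acly and Pmvk lie right of 0 in each of the 3 tumours.

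Among the early sterol enzymes, Pmvk, phosphomevalonate kinase, read 6.98, 7.36 and 6.20 in treated cells, against 6.96, 6.33 and 6.17 in untreated BCR-negative cells, a fitted change of 0.36 (SE 0.18, limma, adjusted p = 0.347). Its differences were 0.0224, 1.03 and 0.0347 in tumours 2567, 2646 and 2676, so the change came mostly from 2646. Dhcr7, the reductase that ends a branch of cholesterol synthesis, read 7.40, 7.97 and 7.38 in treated cells, against 7.09, 7.10 and 7.05 in untreated BCR-negative cells. Each treated array exceeded each untreated one, so the groups did not overlap, and the fitted change was 0.50 (SE 0.12, limma, adjusted p = 0.0673), 1.42-fold. Dhcr7 stood higher in tumour 2567 too, where 14 of the 17 sterol enzymes were lower. Without tumour 2646 the change was 0.32 for Dhcr7 and 0.0286 for Pmvk.

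Fitted changes were above 0 for 7 of 7 fatty acid genes, with a median of 0.21. By tumour, 3, 7 and 6 of the 7 were higher in treated cells of tumours 2567, 2646 and 2676, with median differences of -0.00677, 0.51 and 0.32. Over the 29 genes 17 were above 0 (58.6%), against 56.7% of all genes. Scd1, the stearoyl-CoA desaturase that makes monounsaturated fatty acids, read 9.86, 10.21 and 9.70 in treated cells, against 9.42, 9.54 and 9.06 in untreated BCR-negative cells. The groups did not overlap, and the fitted change of 0.59 (SE 0.13, limma, adjusted p = 0.055) was 1.5-fold. Higher, non-overlapping signals in treated cells were seen for 2 of the 29 genes (6.9%), against 5.9% of all genes, and lower ones for 0, against 4.68%. Scd1, Dhcr7, Acly and Pmvk, 4 of 29 (13.8%), were higher in each of the 3 tumours, against 25.7% of all genes. Acly, which splits citrate to give cytosolic acetyl-CoA, read 9.38, 8.75 and 9.06 in treated cells, against 9.28, 8.20 and 8.74 in untreated BCR-negative cells, a fitted change of 0.32 (SE 0.13, limma, adjusted p = 0.257). Without tumour 2646 the change of Acly was 0.21. Its groups overlapped, and 77.2% of its variance lay between tumours. Acaca, acetyl-CoA carboxylase, read 7.56, 6.98 and 7.46 in treated cells, against 7.56, 6.46 and 7.01 in untreated BCR-negative cells, a fitted change of 0.32 (SE 0.16, limma, adjusted p = 0.373). The other 24 genes had fitted changes from -0.29 to 0.25. With array weights Scd1, Dhcr7 and Acly passed, in a fit that called 12.6% of all genes. An intensity trend with robust variances let Scd1 pass (limma, adjusted p = 0.035), in a fit that called 1.66% of all genes.

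None of the 5 regulators and transport genes passed under CHIR99021. Srebf1 and Srebf2, which encode the SREBP factors, had fitted changes of -0.049 and -0.0342, with intervals of -0.32 to 0.22 and -0.26 to 0.19. Insig1, which retains the SREBP complex in the endoplasmic reticulum and is itself an SREBP target, read 8.55, 8.87 and 9.32 in treated cells, against 9.35, 8.65 and 9.58 in untreated BCR-negative cells. As for Hmgcs1, treated cells were lower in tumours 2567 and 2676 and higher in 2646. Scap had differences of -0.0842, 0.20 and 0.31, and Stard4, a carrier of cholesterol, of -0.25, 0.30 and -0.0895.

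**Figure D3:**
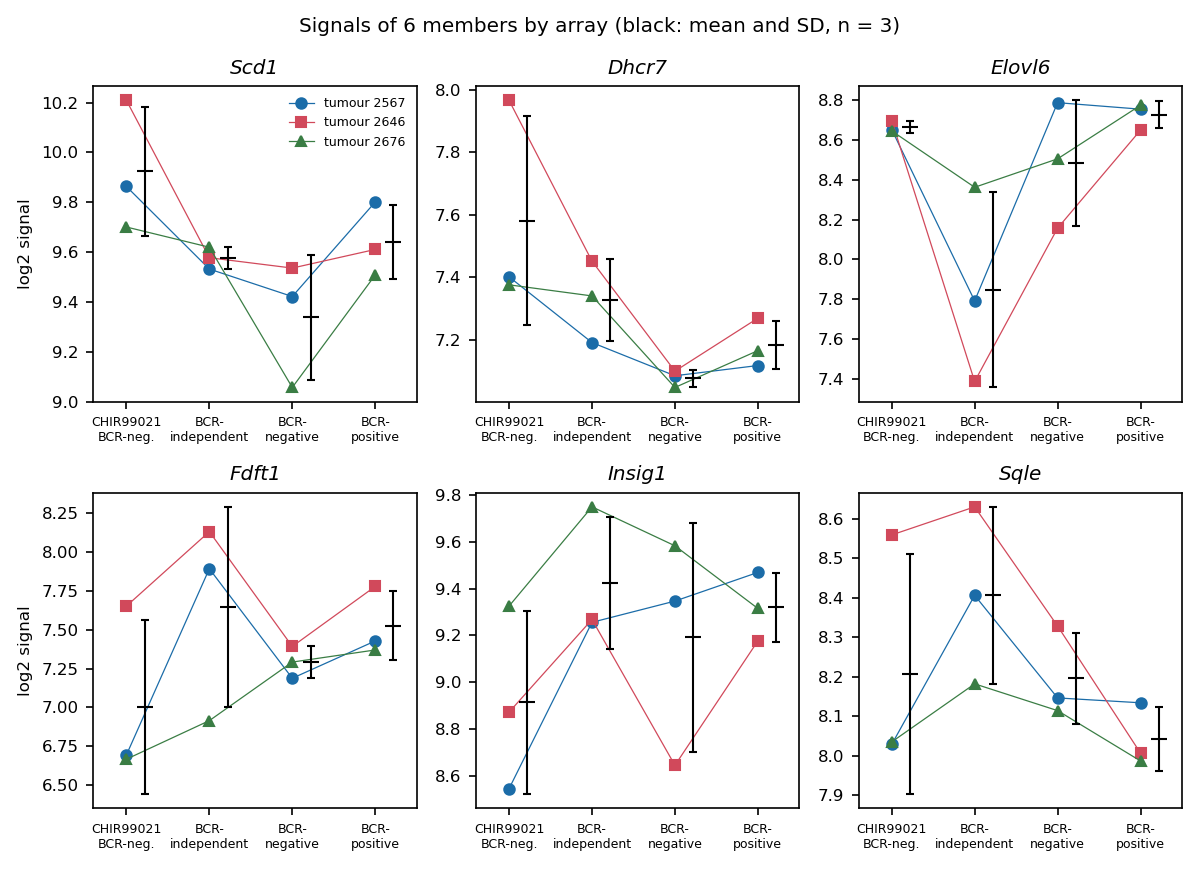
Log2 signals of 6 of the 29 genes on the 12 arrays, by group, with thin lines joining arrays of the same tumour and black marks for mean and SD (n = 3). Treated signals of Scd1 and Dhcr7 lie above those of untreated BCR-negative cells in each tumour, and Elovl6 is lowest in BCR-independent cells in each tumour. The vertical axes differ between genes and do not start at 0.

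Genes next to these routes were taken from further lists, chosen with earlier results of these data known. Of 24 listed genes, 20 were tested in a group of fatty acid elongation, desaturation, activation and glycerolipid entry genes, and 3 rose and 1 fell under CHIR99021, where 1.06% of all genes rose and 0.849% fell. Elovl1, an elongase of very long chains, read 9.05, 9.31 and 9.08 in treated cells, against 8.52, 8.63 and 8.33 in untreated BCR-negative cells, a change of 0.65 (SE 0.12, limma, adjusted p = 0.0375). Hacd3, a dehydratase of the elongation cycle, read 6.21, 5.87 and 5.59 in treated cells, against 5.40, 5.26 and 5.18 in untreated cells, a change of 0.61 (SE 0.12, limma, adjusted p = 0.0391). Fads1, a desaturase of polyunsaturated fatty acids, read 6.92, 7.06 and 6.55 in treated cells, against 6.22, 6.19 and 6.23 in untreated cells, a change of 0.63 (SE 0.12, limma, adjusted p = 0.0425). The treated and untreated groups did not overlap for Elovl1, Hacd3 or Fads1. Gpam, the mitochondrial acyltransferase that starts glycerolipid synthesis, fell to 6.95, 7.17 and 7.47 in treated cells, against 8.17, 8.25 and 8.18 in untreated cells, a change of -1.01 (SE 0.20, limma, adjusted p = 0.042) without overlap.

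Of 20 listed genes of sterol uptake, transport and further synthesis steps, 12 were tested and 1 rose. Lrp8, a receptor of apolipoprotein E, read 4.59, 6.46 and 6.01 in treated cells, against 3.45, 5.53 and 4.93 in untreated BCR-negative cells, a change of 1.05 (SE 0.19, limma, adjusted p = 0.0372). Its groups overlapped and its signals in tumour 2567 were the lowest of the 3 tumours in each group, but treated cells were higher in each tumour. Of 7 tested LXR targets and cholesterol efflux genes and 12 tested fatty acid oxidation genes, 0 and 0 passed, with median changes of -0.0499 and 0.0017. Each of these 5 calls was lost with no tumour block, with any of the 3 tumours left out and when the title mark was a term, and further settings ended the calls of Elovl1, Fads1 and Hacd3 (the 2 groups alone, and for Hacd3 the intensity trend) and of Gpam (no filter). Over all settings run the changes lay between 0.97 and 1.11 for Lrp8, 0.44 and 0.72 for Elovl1, 0.51 and 0.81 for Hacd3, 0.51 and 0.79 for Fads1 and -1.15 and -0.90 for Gpam.

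**Figure D4:**
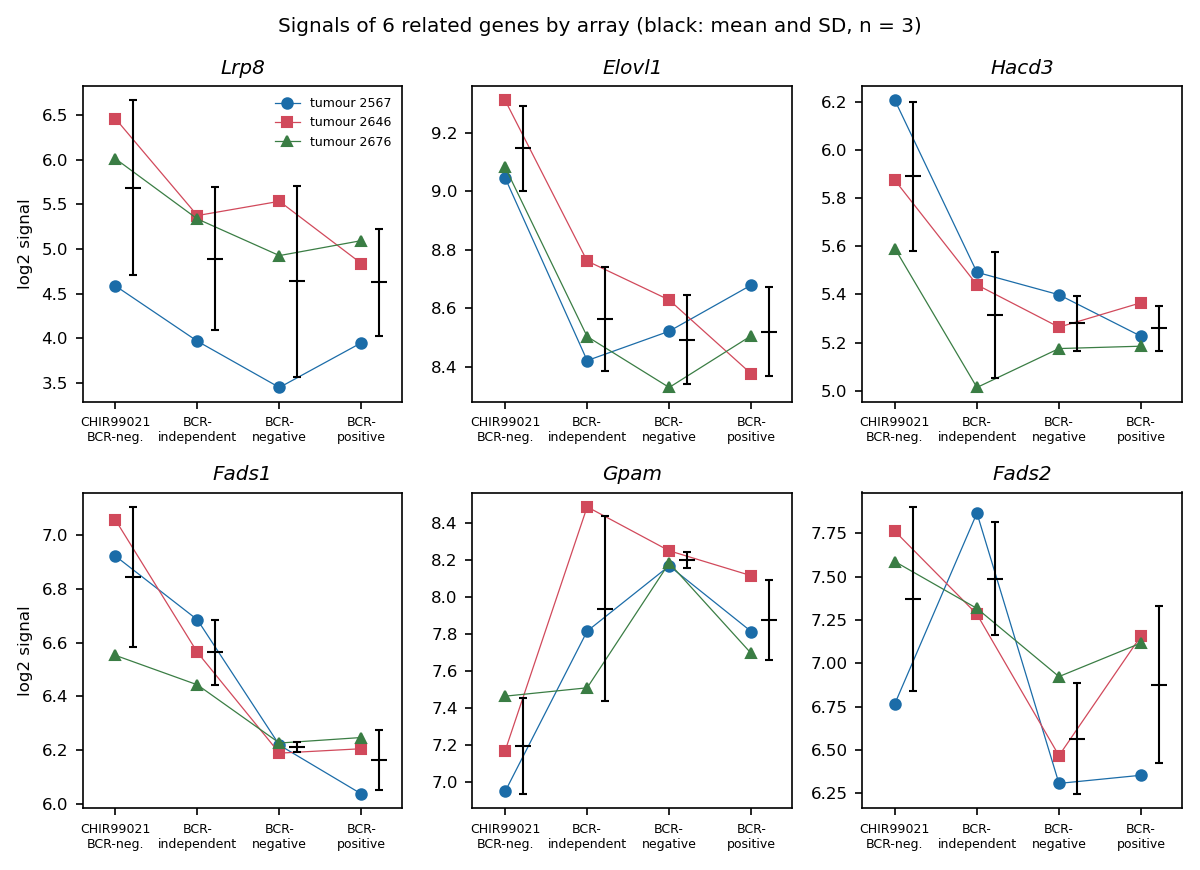
Log2 signals of 6 genes of neighbouring lipid pathways on the 12 arrays, by group, with thin lines joining arrays of the same tumour and black marks for mean and SD (n = 3). Treated BCR-negative cells lie above untreated ones in each tumour for Lrp8, Elovl1, Hacd3 and Fads1 and below them for Gpam. The vertical axes differ between genes and do not start at 0.

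BCR-negative and BCR-positive cells were compared to ask what loss of the receptor changes. The synthesis genes showed no common direction. None of the 29 passed (limma, adjusted p = 0.999 at the lowest), where 0.00772% of all genes did, and 12 of 29 fitted changes were above 0 (41.4%), against 49.7% of all genes. At an unadjusted p under 0.05 there was 1 of 29 (3.45%), Scd1, against 3.19% of all genes. The median change was -0.0329, beside -0.000927 over all genes. By tumour the medians were 0.0123, -0.17 and 0.0568 in tumours 2567, 2646 and 2676. The 7 fatty acid genes had a median change of -0.20, with 5 below 0. Their medians were 0.0327, -0.48 and -0.0619 in tumours 2567, 2646 and 2676. For the 17 sterol enzymes the median change was -0.0219, with 9 below 0. The difference between the arms was not tested.

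Scd1 read 9.42, 9.54 and 9.06 in BCR-negative cells, against 9.80, 9.61 and 9.51 in BCR-positive cells, a fitted change of -0.30 (SE 0.13, limma, adjusted p = 0.999). BCR-negative cells were lower in each tumour, although the groups overlapped. Scd2, the second desaturase, read 10.78, 10.66 and 10.58 in BCR-negative cells, against 10.85, 11.01 and 10.78 in BCR-positive cells, a fitted change of -0.20 (SE 0.13, limma, adjusted p = 0.999). Its groups did not overlap by the barest margin, the highest BCR-negative and the lowest BCR-positive array both rounding to 10.78. Dhcr7 was lower without overlap, at 7.09, 7.10 and 7.05 in BCR-negative cells, against 7.12, 7.27 and 7.17 in BCR-positive cells, so that 2 of 29 (6.9%) were lower in this way, against 2.01% of all genes, and 0 were higher, against 2.5%. Acly read 9.28, 8.20 and 8.74 in BCR-negative cells, against 9.26, 8.76 and 8.80 in BCR-positive cells, a fitted change of -0.20 (SE 0.13, limma, adjusted p = 0.999). Mvk, mevalonate kinase, read 5.46, 5.30 and 5.24 in BCR-negative cells, against 5.41, 5.53 and 5.54 in BCR-positive cells, a fitted change of -0.16 (SE 0.11, limma, adjusted p = 0.999). Srebf1 read 6.12, 5.78 and 5.83 in BCR-negative cells, against 6.10, 6.13 and 6.00 in BCR-positive cells, a fitted change of -0.17 (SE 0.12, limma, adjusted p = 0.999). For Acly, Mvk and Srebf1, BCR-negative cells were lower in tumours 2646 and 2676 and slightly higher in 2567. Without tumour 2646 the changes were -0.022 for Acly, -0.0759 for Srebf1, -0.13 for Scd2 and -0.16 for Scarb1, and without 2676 that of Mvk was -0.0881. Scarb1, a receptor that takes up cholesterol from lipoproteins, and Mcat, an enzyme of mitochondrial fatty acid synthesis, had the smallest p of the neighbouring genes, with changes of -0.29 (SE 0.15, limma, adjusted p = 0.999) and 0.17 (SE 0.0911, limma, adjusted p = 0.999).

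The next comparison set BCR-independent clones, which persist without the receptor, against BCR-negative cells. Fitted changes were above 0 for 27 of the 29 genes (93.1%), against 55.3% of all genes, and for 17 of 17 sterol enzymes. None passed (limma, adjusted p = 0.781 at the lowest), where 0.00772% of all genes did, and 1 of 29 had an unadjusted p under 0.05 (3.45%), against 5.99% of all genes. The median change of the 29 was 0.17, beside 0.0167 over all genes.

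The lean upward was largest in 1 tumour. In tumour 2646, 27 of 29 genes were higher in the clone than in BCR-negative cells, and 16 and 17 of 29 were in tumours 2567 and 2676. Medians of the 29 were 0.0909, 0.28 and 0.0934 in tumours 2567, 2646 and 2676, where all genes had medians of 0.0186, 0.0296 and 0.006. Of the 17 sterol enzymes, 9, 17 and 8 were higher in these tumours, with medians of 0.11, 0.42 and -0.015. The untreated BCR-negative array of tumour 2646 also served in the comparison under CHIR99021, so the results of that tumour are not separate. Without tumour 2646, 19 of 29 had fitted changes above 0, with a median of 0.0915, beside 0.0138 over all genes. With the title mark in the fit 16 of 29 did, with a median of 0.043, beside 0.0448 over all genes. In each of the 3 tumours alike, 10 of 29 genes (34.5%) were higher, against 16% of all genes.

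Among the sterol enzymes, Dhcr7 read 7.19, 7.45 and 7.34 in BCR-independent clones, against 7.09, 7.10 and 7.05 in BCR-negative cells, a fitted change of 0.25 (SE 0.12, limma, adjusted p = 0.814). Mvk read 5.56, 5.59 and 5.49 in the clones, against 5.46, 5.30 and 5.24 in BCR-negative cells, a fitted change of 0.21 (SE 0.11, limma, adjusted p = 0.821). Dhcr7, Mvk and the dim Tm7sf2, a sterol reductase, were the genes whose signals in the clones lay wholly above those in BCR-negative cells, 3 of 29 (10.3%), against 2.99% of all genes. For Tm7sf2 the margin was very narrow, with 3.569 in the lowest clone and 3.563 on the highest BCR-negative array. None lay wholly below, against 1.55% of all genes. Pmvk read 7.12, 6.99 and 6.30 in the clones, against 6.96, 6.33 and 6.17 in BCR-negative cells, higher in each tumour but overlapping, with a fitted change of 0.32 (SE 0.18, limma, adjusted p = 0.827).

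Elovl6, the elongase that extends palmitate, was 1 of the 2 genes with a fitted change below 0. It read 7.79, 7.39 and 8.36 in the clones of tumours 2567, 2646 and 2676, against 8.79, 8.16 and 8.50 in BCR-negative cells, and its groups overlapped. The fitted change of -0.64 (SE 0.19, limma, adjusted p = 0.781) had the smallest p of the 29 and did not pass over all genes. Scd1 read 9.53, 9.58 and 9.62 in the clones, against 9.42, 9.54 and 9.06 in BCR-negative cells, a fitted change of 0.24 (SE 0.13, limma, adjusted p = 0.825). Of the neighbouring genes, Fads2, another desaturase of polyunsaturated fatty acids, read 7.87, 7.28 and 7.32 in the clones, against 6.31, 6.47 and 6.92 in BCR-negative cells, a fitted change of 0.92 (SE 0.27, limma, adjusted p = 0.781). Fads1 had a fitted change of 0.35 (SE 0.12, limma, adjusted p = 0.799). Without tumour 2567 the change of Fads2 was 0.60, without 2676 that of Scd1 was 0.0759 and without 2646 that of Pmvk was 0.15. With the title mark in the fit the changes were 0.0632 for Scd1, 0.0644 for Pmvk and 0.12 for Dhcr7.

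**Figure D5:**
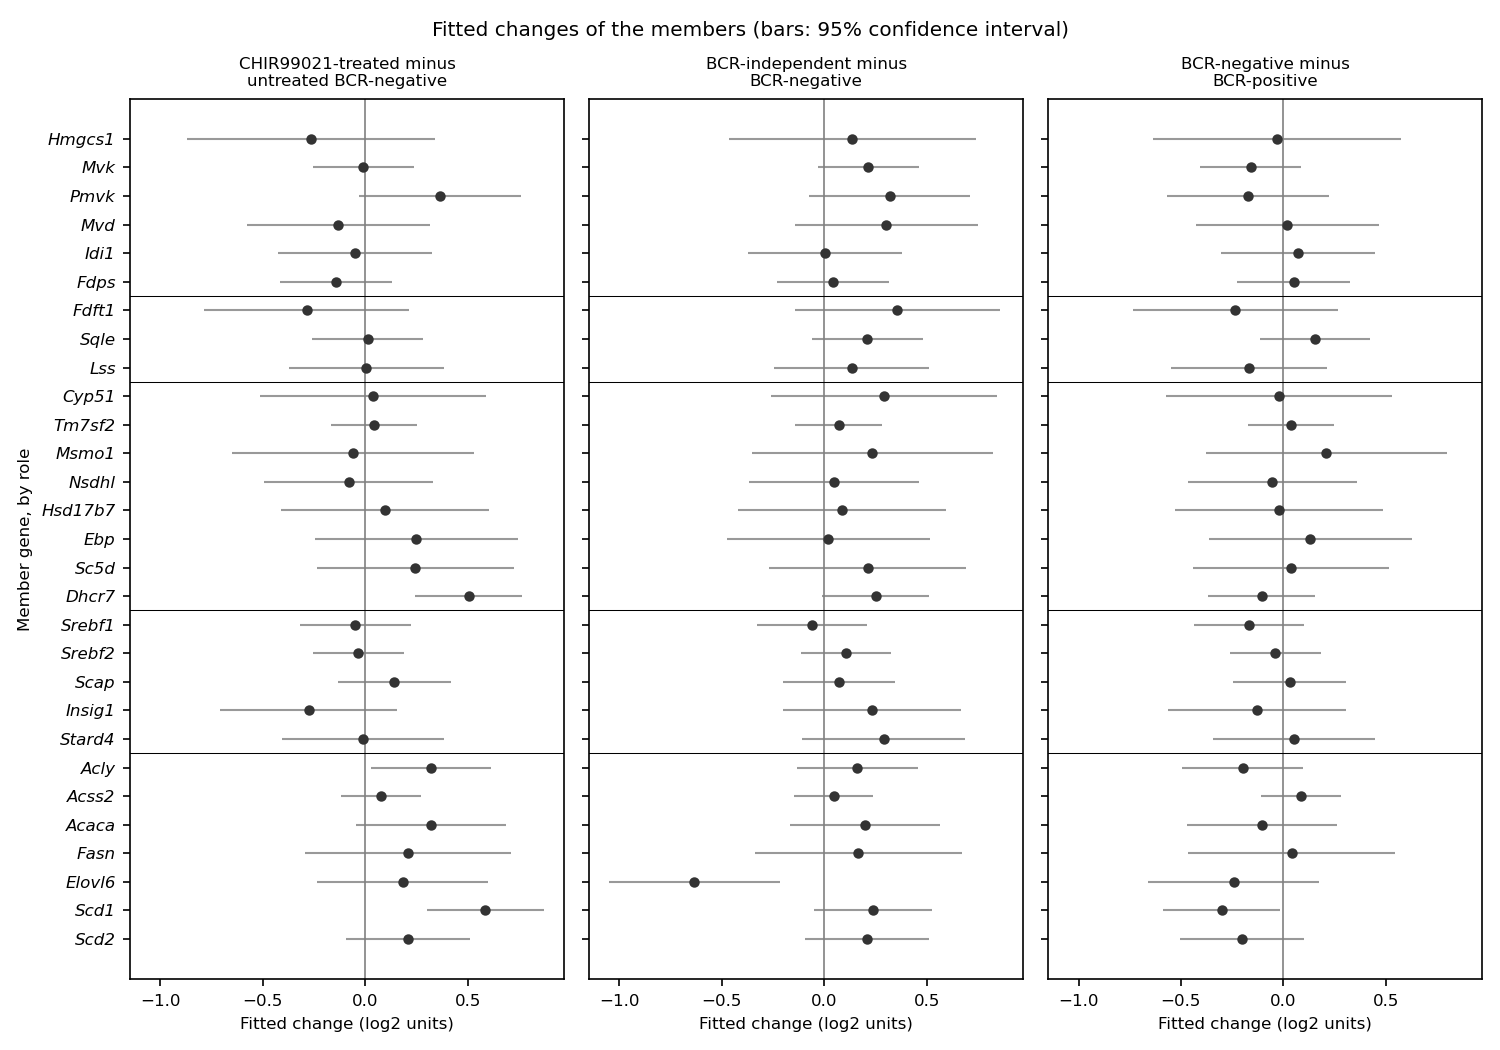
Fitted log2 changes of the 29 genes with 95% confidence intervals for CHIR99021-treated minus untreated BCR-negative cells (left), BCR-independent minus BCR-negative cells (middle) and BCR-negative minus BCR-positive cells (right). The first 2 share the BCR-negative arrays. The intervals of Scd1, Dhcr7 and Acly on the left, of Elovl6 in the middle and of Scd1 on the right leave out 0, none of which passed over all genes.

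Set against BCR-positive cells, the same clones were again low for Elovl6. It read 7.79, 7.39 and 8.36 in BCR-independent clones, against 8.75, 8.65 and 8.77 in BCR-positive cells, and the groups did not overlap. The fitted change of -0.88 (SE 0.19, limma, adjusted p = 0.215) was 0.544-fold and missed the threshold. Sqle, the squalene epoxidase, read 8.41, 8.63 and 8.18 in the clones, against 8.13, 8.01 and 7.99 in BCR-positive cells, also without overlap and with a fitted change of 0.36 (SE 0.12, limma, adjusted p = 0.397). Higher signals without overlap were seen for 2 of 29, Sqle and Msmo1 (6.9%, against 4.79% of all genes), and lower ones for 2, Elovl6 and Srebf1 (6.9%, against 2.56% of all genes). Msmo1 read 8.74, 8.80 and 8.71 in the clones, against 8.63, 8.19 and 8.10 in BCR-positive cells, a fitted change of 0.44 (SE 0.26, limma, adjusted p = 0.635). Adding the title mark turned the change of Msmo1 to -0.0314. Srebf1 read 5.79, 5.79 and 5.96 in the clones, against 6.10, 6.13 and 6.00 in BCR-positive cells, a fitted change of -0.23 (SE 0.12, limma, adjusted p = 0.585). Stard4 read 7.45, 6.90 and 6.74 in the clones, against 6.69, 6.91 and 6.46 in BCR-positive cells, a fitted change of 0.34 (SE 0.18, limma, adjusted p = 0.58), and its groups overlapped. Without tumour 2567 the change of Stard4 was 0.13, and without 2646 that of Sqle was 0.23. None of the 29 passed, where 0.0849% of all genes did, and the median change was 0.10, beside 0.0221 over all genes. Fitted changes were above 0 for 23 of 29 (79.3%), against 55.7% of all genes, and for 10 of 29 after adding the title mark, with a median of -0.0898. The arrays of the clones are shared with the comparison before. At an unadjusted p under 0.05 there were 2 of 29 (6.9%), against 9.61% of all genes.

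CHIR99021-treated BCR-negative cells were also set against BCR-positive cells, a comparison in which treatment and receptor both differ. None of the 29 passed, where 0.802% of all genes did, and 2 of 29 (6.9%) had an unadjusted p under 0.05, against 15.6% of all genes. Dhcr7 read 7.40, 7.97 and 7.38 in treated cells, against 7.12, 7.27 and 7.17 in BCR-positive cells, without overlap and with a fitted change of 0.40 (SE 0.12, limma, adjusted p = 0.144). It was the 1 of 29 that was higher in this way, against 6.99% of all genes, and 0 were lower, against 4.51%. Fitted changes were above 0 for 18 of 29 (62.1%), against 57.1% of all genes, with a median of 0.0415. Adding the title mark left 10 of 29 above 0, with a median of -0.17. Fdft1, squalene synthase, read 6.69, 7.65 and 6.67 in treated cells, against 7.43, 7.78 and 7.37 in BCR-positive cells, a fitted change of -0.52 (SE 0.22, limma, adjusted p = 0.299), and was lower in each tumour. Insig1 read 8.55, 8.87 and 9.32 in treated cells, against 9.47, 9.18 and 9.31 in BCR-positive cells, a fitted change of -0.41 (SE 0.19, limma, adjusted p = 0.353). The dim Acss2 read 3.71, 4.17 and 3.77 in treated cells, against 3.44, 3.99 and 3.73 in BCR-positive cells, a fitted change of 0.16 (SE 0.0863, limma, adjusted p = 0.411). Both overlapped between the groups. Scd1 read 9.86, 10.21 and 9.70 in treated cells, against 9.80, 9.61 and 9.51 in BCR-positive cells, a fitted change of 0.28 (SE 0.13, limma, adjusted p = 0.323), higher in each tumour with overlap. Without tumour 2646 the changes were 0.25 for Dhcr7 and 0.13 for Scd1, and without 2567 that of Insig1 was -0.15. Scd1 thus read 9.92 ± 0.26 in treated BCR-negative, 9.58 ± 0.0438 in BCR-independent, 9.34 ± 0.25 in untreated BCR-negative and 9.64 ± 0.15 in BCR-positive cells (SD, n = 3 each). Lrp8, Fads1 and Hacd3 rose against BCR-positive cells too, where 0.355% of all genes rose, with changes of 1.06 (SE 0.19, limma, adjusted p = 0.0466), 0.68 (SE 0.12, limma, adjusted p = 0.0466) and 0.63 (SE 0.12, limma, adjusted p = 0.0483). Each of these 3 calls was lost in 8 of the 13 alternatives: with no tumour block, no filter, the 2 groups alone, any tumour left out and the title mark for each of them, with cyclic loess for Lrp8 and with the intensity trend for Fads1 and Hacd3. With the 2 groups alone 0 genes of the whole table were called. Over the other 4 comparisons 0 genes of the neighbouring lists passed.

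Treated BCR-negative cells and BCR-independent clones, both without the receptor, gave the smallest p of the 29 at Elovl6. It read 8.65, 8.70 and 8.64 in treated cells, against 7.79, 7.39 and 8.36 in the clones, without overlap and with a fitted change of 0.82 (SE 0.19, limma, adjusted p = 0.147). Scd1 was also higher in treated cells without overlap, at 9.86, 10.21 and 9.70 in treated cells, against 9.53, 9.58 and 9.62 in the clones, a fitted change of 0.35 (SE 0.13, limma, adjusted p = 0.322). Higher signals without overlap thus held for 2 of 29 (6.9%), against 4.27% of all genes, and lower ones for 0, against 3.92%. Fitted changes were above 0 for 14 of 29 (48.3%), against 52.8% of all genes. Fdft1 read 6.69, 7.65 and 6.67 in treated cells, against 7.89, 8.13 and 6.92 in the clones, a fitted change of -0.64 (SE 0.22, limma, adjusted p = 0.293). Insig1 read 8.55, 8.87 and 9.32 in treated cells, against 9.26, 9.27 and 9.75 in the clones, a fitted change of -0.51 (SE 0.19, limma, adjusted p = 0.336). Both were lower in treated cells in each tumour, and both overlapped between the groups. Mvd, the decarboxylase that ends the mevalonate steps, read 5.64, 6.19 and 5.22 in treated cells, against 6.58, 5.98 and 5.78 in the clones, lower in tumours 2567 and 2676 and higher in 2646, with a fitted change of -0.43 (SE 0.20, limma, adjusted p = 0.421). Without tumour 2567 the changes were -0.36 for Fdft1 and -0.18 for Mvd, and without 2646 that of Scd1 was 0.21. None of the 29 passed, where 0.162% of all genes did, and 4 of 29 (13.8%) had an unadjusted p under 0.05, against 12.3% of all genes. The 17 sterol enzymes had a median change of -0.13 and the 7 fatty acid genes one of 0.12, beside 0.00999 over all genes. This difference between the arms was not tested.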

How the data were processed

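Log2 expression signals of 35556 probe sets on 12 Affymetrix Mouse Gene 1.1 ST arrays were used as deposited. Per the submitters' processing notes the authors used Affymetrix Power Tools and RMA, with no version given in the sources used here. RMA corrects background, normalizes arrays and summarises probes, and compresses differences between dim probe sets. No detection calls were used, and the number of arrays limits precision. The platform annotation paired 21218 with 1 gene symbol, 1881 with several and 12457 with none, and the last 2 kinds were left out. Of those with 1 symbol, 21185 were matched by gene ID to a RefSeq table of GRCm38.p6 and took its symbol, whether or not it differed. The listed genes kept the symbols of the platform annotation. Kept were 23197 probe sets that exceeded the 40th percentile in 3 or more arrays, and each gene had its probe set with the highest mean (12961 genes).

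Groups and tumour numbers come from the titles, and each tumour occurs once per group, so the tumour was a block. After each group's mean was subtracted, with no tumour term, arrays of the same tumour correlated at 0.28 to 0.79. Arrays of different tumours and groups correlated at -0.57 to 0.16. In R 4.3.3, limma 3.58.1 (lmFit, eBayes) fitted group and tumour over all 12 arrays, with 6 residual and 3.41 prior degrees of freedom, and p-values were adjusted by Benjamini-Hochberg over 12961 genes for each of 6 comparisons. The fit was tested on simulated data. No set test was run. Named with their values are, for each comparison, the 5 listed genes with the smallest p. Of the neighbouring lists, those called and the 2 with the smallest p in the comparisons of treated, BCR-independent and BCR-positive with BCR-negative cells are named. Sterol enzymes shown for their treated-minus-untreated differences by tumour or their non-overlap (Hmgcs1, Cyp51, Tm7sf2) were chosen after their values were seen. So were the regulators Srebf2 and Scap and the promoter of Fasn. The genes and lists were chosen with earlier results of these data known. Alternatives were no block, other filters, quantile or cyclic loess normalization, array weights, an intensity trend with robust variances, 2 groups alone, mean probe sets, the title mark in the fit and each tumour left out.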

Additional observations from a re-analysis of the deposited data

How the results depend on the processing

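Of 13 alternatives, the number of the 29 genes called differed from 0 in 2, both for CHIR99021-treated against untreated BCR-negative cells. With an intensity trend and robust eBayes it was 1 of 29, in a fit that called 1.66% of all genes. With array weights it was 3 of 29, where 12.6% of all genes were called. Without the tumour block 0 of 29 were called in each of the 6 comparisons, while the genes called over the whole table under CHIR99021 came to 12, against 248. The block cannot move the medians, since each tumour occurs once per group. With the title mark as a term the median change was 0.043 for BCR-independent against BCR-negative cells, -0.0898 for BCR-independent against BCR-positive cells and -0.17 for treated against BCR-positive cells, and Msmo1 in BCR-independent against BCR-positive cells turned to -0.0314. The cause was not tested. In tumours 2646 and 2676 the mark cannot be told apart from the untreated receptor-positive and receptor-negative state. Leaving out a tumour gave medians of -0.093 to 0.14 under CHIR99021 and 0.0915 to 0.20 for BCR-independent against BCR-negative cells, with 0 of 29 called. Over the 13 alternatives the whole-table calls ranged from 1 to 1635 for treated against untreated BCR-negative cells (248 as reported), 0 to 2 for BCR-negative against BCR-positive (1), 0 to 3 for BCR-independent against BCR-negative (1), 1 to 14 for BCR-independent against BCR-positive (11), 0 to 183 for treated against BCR-positive (104) and 0 to 39 for treated against BCR-independent cells (21).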

Other observations

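Acaca, Idi1 and Scap each had a second single-gene probe set. For CHIR99021-treated minus untreated BCR-negative cells, the group means of Acaca differed by 0.32 with the second probe set and 0.32 with the one used. Those of Idi1, the isomerase of isopentenyl diphosphate, differed by -0.0196 and -0.0493. The second probe set of Scap was dim, at 3.53 to 3.85 over the 12 arrays, and gave a difference of -0.007 where the one used gave 0.14.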
